A study of Mus musculus with 12 samples.

Results

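The second day of myogenic differentiation was examined in C2C12 cells, an immortalised mouse myoblast line, that had received only the vehicle DMSO. The comparison set the 2 libraries labelled DM 48h with DMSO against the 2 libraries labelled DM 24h with DMSO, 4 of the 12 libraries of the study. These were chosen by their sample titles, and no measured value entered the choice. Of the 16288 genes listed in any of the 12 libraries, 15298 were listed in at least 1 of these 4, and 12545 passed the low-count filter and were tested.

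Cells of both groups had been grown in medium with fetal bovine serum until nearly confluent and moved to medium with 2% horse serum and 2 ug/ml insulin, per the labels. DMSO was given from 12 h before induction and renewed every 24 h, so vehicle was present in both groups. The remaining libraries were proliferating cells (labelled GM) with DMSO, and cells of all 3 stages with 50 uM PFI-3, a small molecule that occupies bromodomains of BRM and BRG1, ATPases that remodel chromatin. Libraries A and B of each of the 6 groups are biological duplicates, per the labels. All came from a single cell line cultured without nerve or other tissue, and a culture of this kind holds unfused cells beside myotubes. Fewer cells of a type and less RNA per cell cannot be told apart in such bulk libraries.

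Myoblasts leave the cell cycle, switch on the transcription factors MyoD, myogenin and MEF2, fuse into multinucleated myotubes and then build sarcomeres. The sarcomere pairs thick filaments of myosin with thin filaments of actin, anchored at Z-discs and M-bands. Its contraction is triggered when voltage sensors in the cell membrane open calcium channels of the sarcoplasmic reticulum. C2C12 cells are a common model of these steps because lowering the serum is enough to start them. Some cells stay undifferentiated as so-called reserve cells.

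Total expected counts per library were 12594103 and 12965360 at 24 h and 12859768 and 12774372 at 48 h, within the range over all 12 libraries of 12576374 to 13658352. Levels are given as CPM, gene counts relative to the library's adjusted total, with the values of libraries A and B in that order. Between genes, levels are compared as FPKM, which divides by transcript length. Replicates of the 4 libraries differed by more than counting error alone. Chi-square over degrees of freedom was 1.83 at 24 h and 2.01 at 48 h, where counting error alone gives about 1. The proliferating pairs stood apart, with 21.1 for DMSO and 15.6 for PFI-3, and because 1 model with a shared spread was fitted to all 12 libraries, counts that move with these pairs are given with and without them.

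Promoters of 6 genes are shown first as examples from groups in which most members moved one way on the second day: a muscle enzyme and a junction receptor that rose, 2 cell cycle genes and a sterol enzyme that fell, and an interferon-stimulated gene that rose. Each is the 250 bases before the annotated start in RefSeq's GRCm38.p6 table, written 5′ to 3′ on the strand of the gene. Capitals mark matches, on either strand, to 6 strings of letters: the E-box CAGCTG bound by MyoD and myogenin, CCAAT, the cell cycle element TTTGAA, the E2F-type TTCCCGC, the TATA string TATAAA, and GAAA, any 2 bases, GAAA, the core of interferon-stimulated response elements.
Ckm: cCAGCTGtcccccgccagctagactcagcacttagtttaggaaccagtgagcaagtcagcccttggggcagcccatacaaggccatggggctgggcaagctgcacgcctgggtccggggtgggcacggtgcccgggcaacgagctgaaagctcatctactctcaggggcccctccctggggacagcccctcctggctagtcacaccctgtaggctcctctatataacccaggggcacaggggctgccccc
Chrng: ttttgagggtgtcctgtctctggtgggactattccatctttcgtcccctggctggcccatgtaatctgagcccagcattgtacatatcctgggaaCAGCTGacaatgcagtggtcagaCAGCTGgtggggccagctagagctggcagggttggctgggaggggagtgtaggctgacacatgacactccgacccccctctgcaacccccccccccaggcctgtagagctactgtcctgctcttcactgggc
Cdk1: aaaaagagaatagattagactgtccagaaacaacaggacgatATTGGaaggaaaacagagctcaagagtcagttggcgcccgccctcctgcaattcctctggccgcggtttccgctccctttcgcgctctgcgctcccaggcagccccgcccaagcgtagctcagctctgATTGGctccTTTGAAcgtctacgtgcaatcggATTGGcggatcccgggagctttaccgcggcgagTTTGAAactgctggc
Cdc6: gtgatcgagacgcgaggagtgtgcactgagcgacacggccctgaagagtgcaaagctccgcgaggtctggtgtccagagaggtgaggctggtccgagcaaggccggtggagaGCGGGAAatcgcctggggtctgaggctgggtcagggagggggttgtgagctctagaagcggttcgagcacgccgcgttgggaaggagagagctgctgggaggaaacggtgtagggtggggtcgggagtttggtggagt
Hmgcs1: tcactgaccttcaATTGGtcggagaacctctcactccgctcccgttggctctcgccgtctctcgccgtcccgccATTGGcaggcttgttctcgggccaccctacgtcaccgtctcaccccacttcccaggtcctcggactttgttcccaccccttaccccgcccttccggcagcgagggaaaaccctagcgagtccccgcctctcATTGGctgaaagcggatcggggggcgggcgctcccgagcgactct
Ifit1: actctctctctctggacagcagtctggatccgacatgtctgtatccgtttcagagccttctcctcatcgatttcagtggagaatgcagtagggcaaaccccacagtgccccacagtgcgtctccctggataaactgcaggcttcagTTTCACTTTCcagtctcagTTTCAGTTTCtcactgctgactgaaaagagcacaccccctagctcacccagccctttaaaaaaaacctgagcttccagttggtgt

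The window of Ckm, muscle creatine kinase, is chr7:19410844-19411093 on the plus strand, with CAGCTG beginning 249 bases before the start. For Chrng, the fetal acetylcholine receptor gamma subunit (chr1:87205561-87205810, plus strand), CAGCTG begins 155 and 132 bases before the start. The window of Cdk1, the mitotic kinase (chr10:69352913-69353162, minus strand), holds CCAAT 3 times and TTTGAA 2 times, the last TTTGAA beginning 15 bases before the start. Cdc6, which loads the replicative helicase (chr11:98907901-98908150, plus strand), holds TTCCCGC on the opposite strand, beginning 138 bases before the start. Hmgcs1, an early enzyme of sterol synthesis (chr13:119690101-119690350, plus strand), holds CCAAT 3 times. In Ifit1 (chr19:34640639-34640888, plus strand), the interferon string lies 104 and 85 bases before the start. These 6 genes were chosen after both their changes and their matches were seen.

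The same strings were counted in the 12843 distinct windows of the 10011 tested genes present in the table. CAGCTG was in 12.4% of all these windows, against 19% of the 1039 windows of genes called at least 2-fold higher at 48 h, 45% of the 20 windows of thin filament genes and 35.5% of the 31 windows of excitation-contraction coupling genes. Not every list that rose had a higher share. CAGCTG was in 3.85% of the 26 windows of myogenic regulators and 10% of the 20 windows of dystrophin complex and membrane repair genes. For fusion genes, which moved in both directions, it was in 14.3% of the 35 windows. Lists without a common rise varied as well. CAGCTG was in 30% of the 20 windows of inhibitors and reserve cell genes and 17.4% of the 23 of cholesterol synthesis genes. It was in 9.09% of the 55 windows of G1 and S phase genes and 3.57% of the 28 of cell cycle exit genes. CCAAT was in 35.4% of all windows, against 75.8% of the 62 windows of G2 and M phase genes, 58.2% of the 55 windows of G1 and S phase genes and 73.9% of the 23 windows of cholesterol synthesis genes. TTTGAA was in 10.6% of all windows and in 40.3% of those of G2 and M phase genes. For G1 and S phase genes its share was 12.7%, and for myogenic regulators, which did not fall as a list, 23.1%. TTCCCGC was in 6.72% of all windows and in 21.8% of those of G1 and S phase genes. Its share was 17.9% for cell cycle exit genes, 17.4% for cholesterol synthesis genes and 1.61% for G2 and M phase genes. The interferon string was in 2.5% of all windows and in 40.6% of the 32 windows of interferon-stimulated genes, and TATAAA was in 6.48% of all windows and in 35% of the 20 windows of thick filament genes. Matches of different strings overlapped in 41 windows, and windows of 1 gene can share bases. A match describes letters and is not a binding site, and no test was made of these shares.

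Contractile, calcium-handling and energy genes of muscle were higher after the second day, and genes of DNA replication, mitosis and sterol synthesis were lower. Of the 12545 genes tested, 6035 were called at an adjusted p under 0.05 in edgeR's quasi-likelihood test (48.1%). They split into 3038 higher at 48 h (24.2%) and 2997 lower (23.9%). With limma on FPKM the split was less even, with 2650 higher and 3502 lower on log2(FPKM + 1). Among the called genes, 1001 were at least 2-fold higher (7.98% of those tested) and 644 at least 2-fold lower (5.13%). These shares are the background against which each list below is read. The median log2 fold change over all genes tested was 0.00. With the proliferating libraries left out of the fit 3953 genes were called higher and 3850 lower, of 12371 tested.

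**Figure D1:**
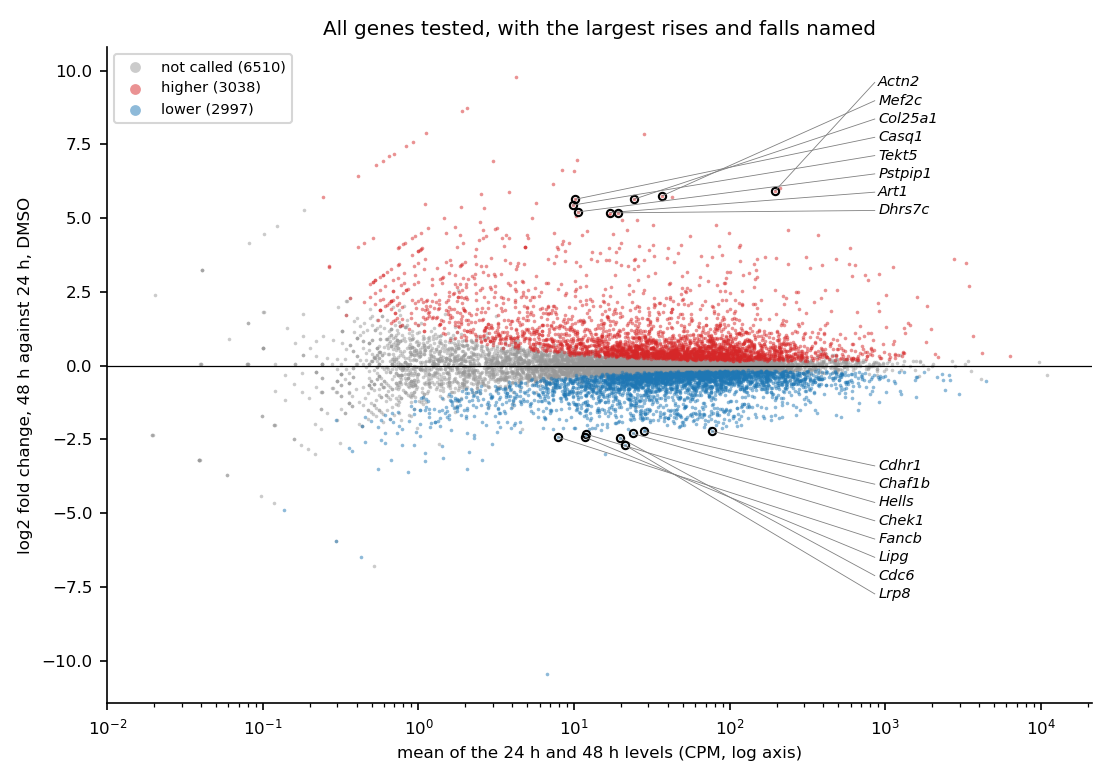
Log2 fold change at 48 h against 24 h in DMSO cells (y axis) against the mean of the levels at both times (x axis, CPM, log axis) for 12545 genes; red points were called higher (3038), blue points lower (2997), grey points not called (6510). Circles mark the 8 largest rises and 8 largest falls among genes averaging 5 CPM or more, with whole counts and more than 3 counts in all 4 libraries, which leaves out, among others, Myh8 and Myh4; Actn2 is the most abundant of them, and the named falls lie between -2.70 and -2.23, nearer to 0 than the named rises.

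The 8 largest rises were taken among genes averaging 5 CPM or more, with whole counts and more than 3 counts in all 4 libraries. Among the genes this leaves out, Myh8 and Myh4, described with the thick filament, rose further than Actn2 and had fractional counts. Of the 8, Actn2 and Mef2c rose most, and genes of the sarcoplasmic reticulum were among the others. Actn2, alpha-actinin of the Z-disc, was at 5.87 and 6.73 CPM at 24 h and 395 and 375.9 CPM at 48 h, a rise of 5.93 on the log2 scale (SE 0.12, adjusted p = 1.35e-11). Mef2c, the MEF2 factor that follows myogenin, went from 1.74 and 0.929 to 71.8 and 73.3 CPM, a rise of 5.76 on the log2 scale (SE 0.25, adjusted p = 4.93e-09). Casq1, the calcium-binding protein of the fast-fibre sarcoplasmic reticulum, went from 0.396 and 0.387 to 19.4 and 20.5 CPM. The rule also took only genes whose 24 h and 48 h libraries do not overlap, so this separation followed from the choice. Dhrs7c, a dehydrogenase of the sarcoplasmic reticulum, went from 0.793 and 1.24 to 37.1 and 37.2 CPM, and Art1, an ADP-ribosyltransferase of the muscle surface, from 0.713 and 1.08 to 33.2 and 33.3 CPM. The others were Col25a1, a transmembrane collagen needed for motor innervation (log2 fold change 5.64), Tekt5, a tektin (5.44), and Pstpip1, a cytoskeletal adaptor (5.21). Some folds start from few counts: at 24 h Casq1 had 5 and 5, Tekt5 6 and 5, and Pstpip1 8 and 6.

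The 8 largest falls, taken by the same rule, were smaller in size than the 8 rises. The rule left out larger fitted falls too. Over all genes tested, fitted log2 fold changes ran from -10.44 to 9.79. Lrp8, a receptor for apolipoprotein E, was at 38.4 and 35.3 CPM at 24 h and at 5.61 and 5.73 CPM at 48 h, and fell by 2.70 on the log2 scale (SE 0.15, adjusted p = 2.93e-08). Of the other 7, 5 act in DNA replication or repair or in chromatin assembly: Cdc6 (fell by 2.45), Fancb of the Fanconi anaemia core complex (fell by 2.42), the checkpoint kinase Chek1 (fell by 2.32), the chromatin remodeller Hells (fell by 2.30) and the histone chaperone subunit Chaf1b (fell by 2.23). Outside these processes were Lipg, a lipase (fell by 2.43), and Cdhr1, a cadherin-related gene (fell by 2.23). Cdhr1 was at 5.8 and 14.5 CPM in proliferating DMSO cells, 126.3 and 127.8 CPM at 24 h, and 26.3 and 27.6 CPM at 48 h, so its level was highest at 24 h among these 3 stages.

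Some genes were at or under 3 counts in both libraries of 1 time, a floor at which only a bound on the fold can be given. Those named here had whole counts in all 4 libraries. This leaves out, among others, Myh4, which had a larger bound and is described with the thick filament. Myot, myotilin of the Z-disc, had 0 counts in both 24 h libraries and 101 and 107 counts at 48 h, at least 36.1-fold higher. Mybpc2, fast myosin-binding protein C, had 0 and 1 counts at 24 h and 70 and 77 at 48 h, at least 25.5-fold higher. Asb16, a subunit of ubiquitin ligases, was at least 22-fold higher and Cd36, a fatty acid transporter, at least 21.3-fold higher. In the other direction, Itgb7, an integrin subunit, had 24 and 26 counts at 24 h and 3 and 3 at 48 h, at least 8-fold lower, and Mcpt8, a serine protease, was at least 6.7-fold lower. Mctp2 (at least 5.58-fold lower) and Cntnap4 (at least 4.33-fold lower) rest on 12 to 22 counts at 24 h, with adjusted p of 0.0153 and 0.0324. Mctp2 lost its call without any 1 library except replicate A of 24 h (adjusted p from 0.065 to 0.101), and Cntnap4 without any 1 of the 4 libraries (adjusted p from 0.0699 to 0.132).

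Among the myogenic regulators, 11 of 22 genes tested rose and 1 fell, with a median log2 fold change of 0.27. That is 50% higher against 24.2% of all genes. Myog, myogenin, was nearly unexpressed in proliferating DMSO cells (0.157 and 0.369 CPM), stood at 847.1 and 837.7 CPM at 24 h and reached 1822 and 1845 CPM at 48 h. Its second-day rise was 1.12 on the log2 scale (SE 0.08, adjusted p = 1.55e-07). Myod1, the factor that commits cells to the lineage, rose from 252.5 and 272.5 to 462.6 and 427.6 CPM (log2 fold change 0.76, SE 0.13, adjusted p = 0.000356).

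The MEF2 family did not move as 1 block. Mef2c rose as given above, Mef2d rose from 233.5 and 253.4 to 488.7 and 472.7 CPM, and Mef2a was not called (520.8 and 572.9 CPM as group means, log2 fold change 0.14). Myf6, the MRF4 factor of later myotubes, had 2 and 4 counts at 24 h and was at 2.28 and 3.6 CPM at 48 h, a rise of 3.59 on the log2 scale (SE 0.57, adjusted p = 0.000262) from a level near the floor. Myf5, the early determination factor, was level at 42.8 and 39 CPM and 42.9 and 42.5 CPM (log2 fold change 0.06, SE 0.15, adjusted p = 0.771). Smyd1, a muscle methyltransferase, and Lmod3, an actin nucleator counted in this list, rose by 2.45 and 3.19 on the log2 scale. Tead4 rose by 1.60, whereas the upstream factor Six4 (-0.14) and the serum response factor Srf (-0.01) were not called, and the splicing regulator Mbnl1 fell by 0.53.

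Genes that hold back differentiation or mark reserve cells showed no common direction. Of 26 tested, 7 rose (26.9%, near the 24.2% of all genes), 3 fell and 16 were not called. Id3, an inhibitor of E-proteins, was at 237.7 and 248.8 CPM in proliferating cells, 22.7 and 21.9 CPM at 24 h and 41.8 and 41.3 CPM at 48 h, a second-day rise of 0.90 (SE 0.16, adjusted p = 0.00066). Id1 was level on the second day (17.1 and 14.5 CPM, then 16.1 and 15.2 CPM). Pax7, the satellite cell factor, was at 165.9 and 169.7 CPM at 24 h and 227.7 and 208.8 CPM at 48 h (log2 fold change 0.38, SE 0.11, adjusted p = 0.0105), but the call was lost without either A library (adjusted p = 0.0692 without that of 24 h and 0.0863 without that of 48 h) and with limma on FPKM at both pseudocounts (adjusted p = 0.0534 and 0.0659). Hes1, a Notch target, was at 77.3 and 75 CPM and then 59.8 and 56.8 CPM (adjusted p = 0.0216), a call lost when any 1 of the 4 libraries was left out (adjusted p from 0.0691 to 0.127). With the proliferating libraries left out, 14 of 25 members tested rose and 5 fell, beside 3953 and 3850 of all 12371 genes. Without any 1 of the 4 libraries, 4 to 6 members were called higher, 4 of them without either A library.

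The fusion genes also moved in both directions. Of 39 tested, 14 rose and 12 fell, with a median log2 fold change of 0.06. Both fusogens rose: Mymk, myomaker, went from 389.9 and 403.4 to 1459 and 1406 CPM (log2 fold change 1.85, SE 0.09, adjusted p = 1.06e-08), and Mymx, myomerger, from 44.5 and 45.6 to 191.6 and 195.7 CPM (2.10, SE 0.07, adjusted p = 6.06e-09). Neither had more than 0.627 CPM in a proliferating DMSO library. Members that rose further were the caveolar and membrane repair proteins Cav3 (3.50 on the log2 scale) and Dysf (2.80), which also stand in the list of membrane repair, and the calcium-responsive factor Nfatc2 (2.81). Among those that fell were the migration cue Cxcl12 (fell by 1.38), the adhesion receptors Kirrel3 (fell by 1.51) and Kirrel (fell by 0.91) and the Rac activators Dock1 (fell by 0.67) and Dock5 (fell by 0.82). M-cadherin, Cdh15, was at 639.1 and 660.7 CPM and then 579.8 and 583.5 CPM, which was not called (adjusted p = 0.234) unless the proliferating libraries were left out (adjusted p = 0.00122).

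**Figure D2:**
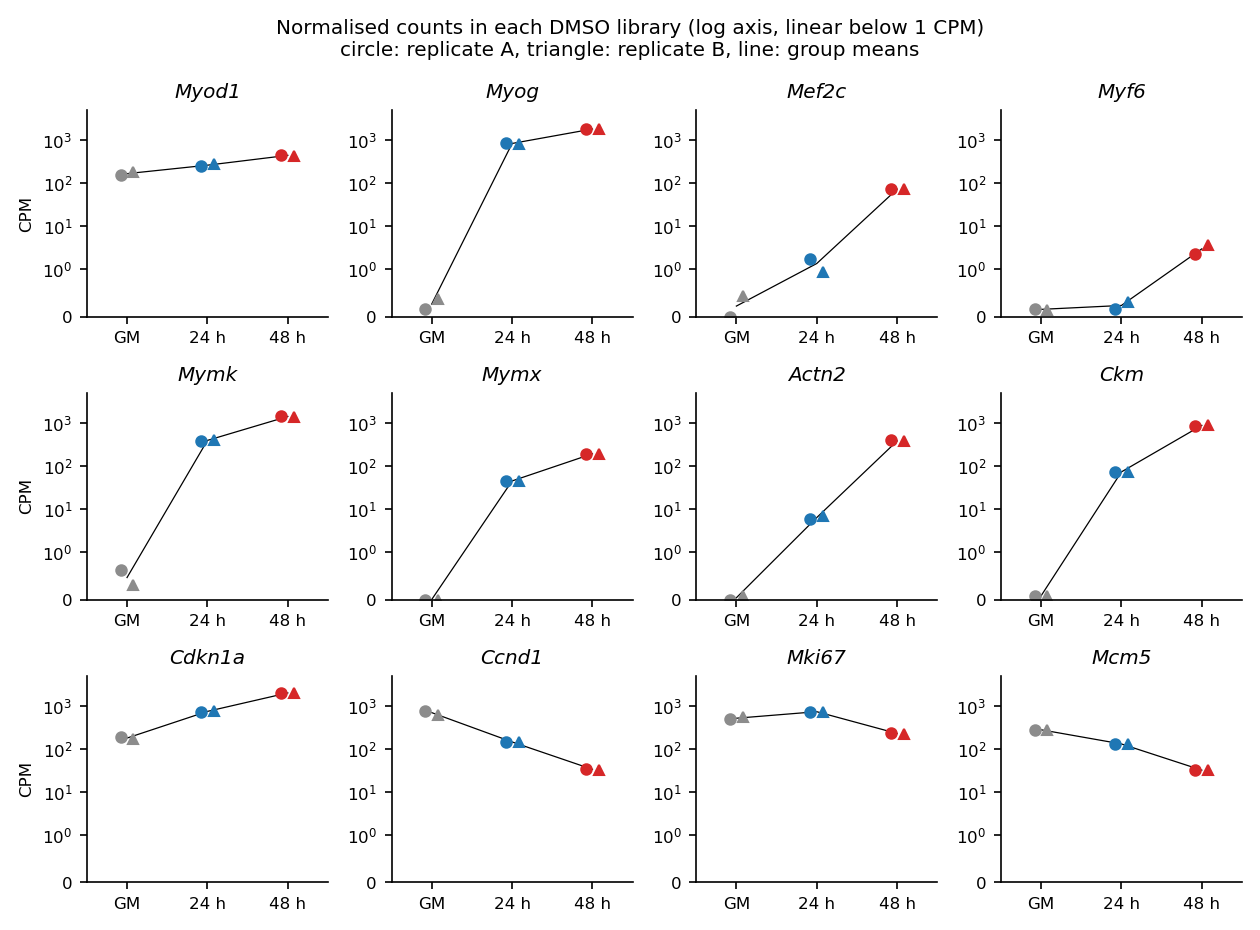
Level (CPM, y axis, log scale that is linear below 1) of 12 named genes in the DMSO libraries of proliferating cells (GM), 24 h and 48 h; circles are replicate A, triangles replicate B, and the line joins group means. Myog was already at 842.4 CPM at 24 h, whereas Mef2c (1.34 CPM), Actn2 (6.3 CPM) and Myf6 (0.234 CPM) were low until 48 h; Mki67 was higher at 24 h than at the other times shown, and Mcm5 and Ccnd1 were lowest at 48 h.

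Thick filament genes rose strongly. Of 22 listed genes 19 passed the filter, 3 of which were at or under 3 counts at 24 h. All 19 rose at 48 h, each by at least 2-fold, with a median log2 fold change of 3.65 and a lowest value of 2.03 (Mylk2, the skeletal myosin light chain kinase). The summed level of the list was 1014 and 1004 CPM at 24 h and 12074 and 12083 CPM at 48 h. Myh3, the embryonic heavy chain, went from 411.6 and 407.3 to 5060 and 5098 CPM (log2 fold change 3.63, SE 0.08, adjusted p = 1.69e-11). Myh8, the perinatal heavy chain, went from 5.87 and 6.81 to 401.7 and 421.9 CPM (6.02, SE 0.12, adjusted p = 1.35e-11). Counts of these heavy chain genes, and of the light chain kinase Mylk4, were partly fractional, as arises when reads are divided between similar sequences, so the split between these paralogs is uncertain.

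On the per-length scale Myh3 was the leading heavy chain at both times, at 69.1 FPKM at 24 h and 820.5 FPKM at 48 h. At 48 h it was followed by Myh8 (64.8 FPKM), the fast adult Myh1 (58.4 FPKM), the slow Myh7 (25.8 FPKM), Myh2 (2.81 FPKM) and Myh4 (2.67 FPKM). Libraries A and B gave 63.2 and 66.4 FPKM for Myh8 and 58 and 58.9 FPKM for Myh1, and 2.5 and 3.13 FPKM for Myh2 and 2.55 and 2.78 FPKM for Myh4, so the first pair did not overlap and the second did. Their order at 24 h was different, with Myh1 (4.85 FPKM) above Myh7 (1.64 FPKM) and Myh8 (1.04 FPKM). Myh4, the fastest adult chain, had 2 counts in each 24 h library and was at least 70.6-fold higher at 48 h. Myh7 rose by 4.04 (SE 0.12) and Myh1 by 3.65 (SE 0.13).

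The light chains rose in parallel. Myl1, the fast essential chain, went from 72.7 and 68.2 to 1124 and 1100 CPM, Myl4, the embryonic essential chain, from 34.3 and 31.7 to 695.9 and 712.2 CPM, and Mylpf, the fast regulatory chain, from 202.4 and 196 to 2030 and 2045 CPM. Their log2 fold changes were 3.98 (SE 0.08), 4.42 (SE 0.08) and 3.35 (SE 0.07). Mybph, a myosin-binding protein, reached 1642 CPM from 190.6 CPM as group means.

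Of 20 thin filament genes tested, 17 rose and 1 fell, with a median of 2.64. Actc1, the cardiac actin that developing skeletal muscle uses, went from 910.9 and 906.9 to 5952 and 5977 CPM (log2 fold change 2.71, SE 0.07, adjusted p = 1.09e-10). Acta1, skeletal actin, went from 545.1 and 551.2 to 6169 and 6019 CPM (3.47, SE 0.17, adjusted p = 1.38e-08). Its counts were partly fractional. At 24 h Actc1 was the higher on the per-length scale (656 against 389.9 FPKM), and at 48 h both stood at similar levels (4122 and 4150 FPKM).

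Troponins of the slow, fast and cardiac types rose together. Tnnt2, the cardiac and embryonic troponin T, went from 325.5 and 349.1 to 1409 and 1512 CPM (2.11, SE 0.11), and Tnnt3, the fast form, from 94.2 and 101.2 to 1032 and 1100 CPM (3.45, SE 0.10). The slow inhibitory subunit Tnni1 rose by 3.03 (SE 0.08) and the fast Tnni2 by 3.62 (SE 0.12). At 48 h Tnni1 was at 1031 FPKM and Tnni2 at 448.5 FPKM. The thin filament member that fell was Tpm3, a tropomyosin that is also widely expressed outside muscle (454.1 and 285.5 CPM as group means, fell by 0.67). Tnni3, of cardiac muscle, and Tmod4 were not called.

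**Figure D3:**
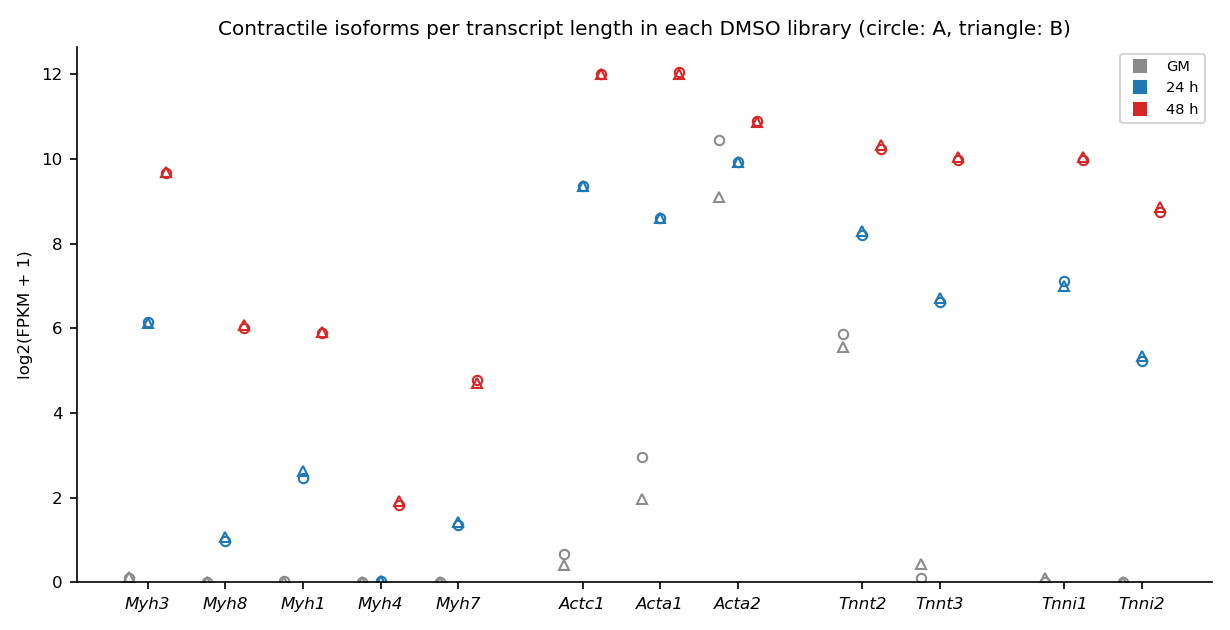
Level per transcript length, log2(FPKM + 1) on the y axis, of myosin heavy chains, actins and troponins in each DMSO library of proliferating cells (GM, grey), 24 h (blue) and 48 h (red); circles are replicate A and triangles replicate B. Replicates at 24 h and 48 h nearly coincide, and every gene shown is higher at 48 h than at 24 h, with Myh3 above the other heavy chains.

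Of 38 Z-disc and M-band genes tested, 34 rose and 1 fell (median 2.30). Ttn, the giant titin, went from 536 and 539.5 to 2639 and 2713 CPM (log2 fold change 2.31, SE 0.09, adjusted p = 1.45e-09). M-band proteins Myom1 (3.74), Myom2 (3.42) and Myom3 (3.44) rose by similar amounts. Desmin, Des, which is expressed early, rose by 1.38 from 802.8 to 2097 CPM, and filamin C, Flnc, by 0.72 from 849.6 to 1397 CPM, all as group means. The small heat shock gene Hspb6 fell by 0.81, while its relatives Hspb7, Hspb3, Hspb2, Hspb8 and Hspb1 rose by between 0.89 and 4.93.

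Of 37 genes of excitation-contraction coupling tested, 36 rose, with a median of 2.05, or 1.85 with the 2 genes near the floor set at their bounds. Ryr1, the calcium release channel, went from 124.1 and 131.4 to 567.2 and 564.4 CPM (2.15, SE 0.09, adjusted p = 2.27e-09). Cacna1s, the voltage sensor, went from 25.9 and 23.2 to 315 and 311.9 CPM (3.67, SE 0.11, adjusted p = 9.26e-10). Atp2a1, the fast calcium pump SERCA1, went from 153.4 and 162.1 to 1319 and 1306 CPM (3.06, SE 0.07, adjusted p = 3.31e-11). Its paralog Atp2a2 rose less, by 1.33, from 394.5 to 989.3 CPM as group means. Casq2, the cardiac and slow calsequestrin, was at 593.6 CPM at 48 h, and on the per-length scale at 226.4 FPKM against 10.6 FPKM for Casq1. Sarcolipin, Sln, which restrains the calcium pump, was not tested, with 0 counts in both 24 h libraries and 3 and 5 at 48 h.

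At the neuromuscular junction, 16 of 21 genes tested rose and 1 fell, although the cultures held no nerve. Chrng, the fetal receptor subunit, went from 132.2 and 131 to 643.4 and 637.9 CPM (2.28, SE 0.09, adjusted p = 1.48e-09). Chrna1, the alpha subunit, rose by 0.82 (SE 0.06), from 814.2 and 824.6 to 1461 and 1441 CPM, and its counts were partly fractional. Chrne, the adult subunit that replaces Chrng, was not tested, with 0 counts at 24 h and 10 and 3 counts at 48 h. Acetylcholinesterase, Ache, and its collagen tail, Colq, rose by 3.70 and 2.72, and the kinase Musk by 0.65. Nrg1, neuregulin, fell by 2.12 from 6.43 to 1.47 CPM as group means, whereas its receptor Erbb3 rose by 2.09.

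In the dystrophin complex and membrane repair list, 17 of 23 genes tested rose and 2 fell (median 0.82). Sgca, alpha-sarcoglycan, went from 30 and 28.9 to 84.1 and 87.4 CPM (1.54, SE 0.14, adjusted p = 2.75e-06). The repair proteins Trim72 (4.10), Cav3 and Dysf rose most. Dystroglycan, Dag1, rose from 1344 to 2330 CPM as group means. Dmd, dystrophin itself, had 1 count in 1 of the 4 libraries and was not tested.

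Of 42 glycolysis and phosphagen genes tested, 31 rose and 1 fell (median 0.89). The rise was largest in muscle isoforms. Ckm went from 74.6 and 71.7 to 873.8 and 904.9 CPM (3.60, SE 0.11, adjusted p = 2.25e-10), while the brain-type Ckb rose by 1.86 (SE 0.25) from 203.7 and 184.4 to 691.9 and 718.3 CPM. At 48 h Ckm stood at 635.7 FPKM and Ckb at 481.4 FPKM. Muscle phosphorylase, Pygm, rose by 3.43, whereas the brain form Pygb fell by 0.46, and muscle phosphofructokinase, Pfkm, rose by 2.50 against 0.55 for Pfkl and 0.33 for Pfkp. Muscle phosphoglycerate mutase, Pgam2, rose by 4.38, and the widely expressed Pgam1 (-0.06) and Pkm (-0.18) were not called. Eno3, muscle enolase, rose by 1.07 from 338.9 and 320.2 to 658.6 and 724.7 CPM, and lactate dehydrogenase A, Ldha, by 0.74.

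Oxidative genes rose less uniformly. Of 35 genes of fatty acid oxidation and oxidative muscle tested, 20 rose and 1 fell (median 0.37). Mb, myoglobin, went from 18.5 and 18.8 to 466.6 and 439.8 CPM (4.60, SE 0.12, adjusted p = 2.25e-10). Cox6a2 and Cox8b, muscle isoforms of cytochrome oxidase subunits, rose by 3.99 (SE 0.16) and 3.97 (SE 0.28). The coactivator Ppargc1a rose by 2.66, from 2.97 to 18.9 CPM as group means. Carnitine palmitoyltransferases Cpt1a (0.06) and Cpt1b (0.04) were not called.

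Among 80 nuclear-encoded respiratory chain genes, 54 rose (67.5%) and 1 fell, but the median was only 0.29. Besides Cox6a2, Cox8b and Cox7a1 (3.26), the largest rise was Ndufs4 (0.86). Cox6a1, the paralog of Cox6a2 found in most tissues, was the one that fell, by 0.20. The 79 cytosolic ribosomal protein genes tested were nearly level (median 0.12). Of these, 20 rose (25.3%, near the 24.2% of all genes) and 3 fell. With the proliferating libraries left out 46 rose and 4 fell, beside 3953 and 3850 of all 12371 genes. Without 1 library the number that rose was 7 (replicate A of 24 h), 8 (replicate B of 24 h), 16 (replicate A of 48 h) or 5 (replicate B of 48 h).

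**Figure D4:**
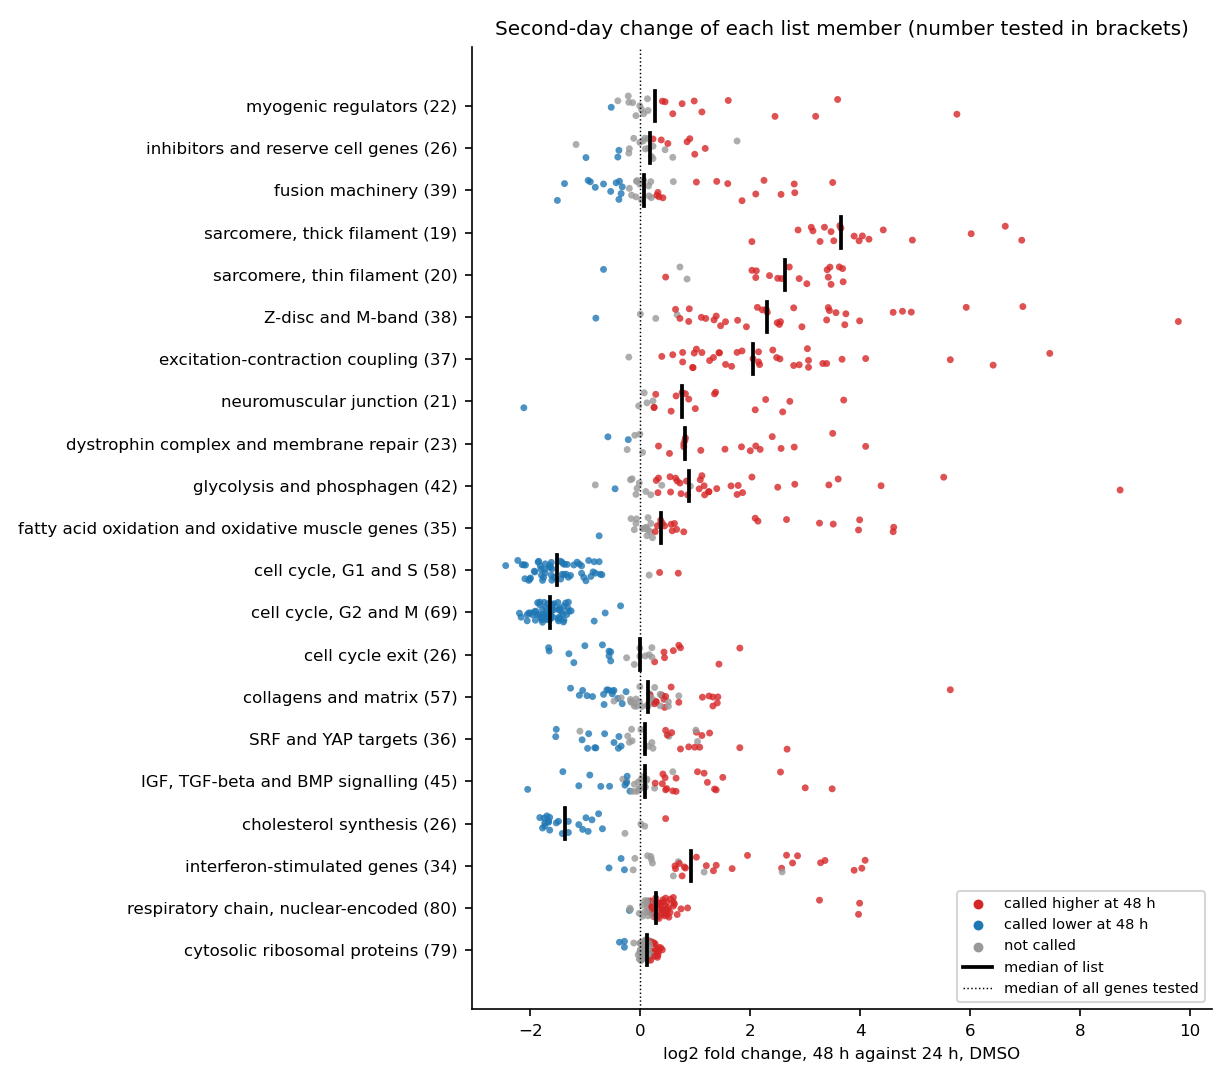
Log2 fold change at 48 h against 24 h in DMSO cells (x axis) of every tested member of 21 gene lists (y axis, number tested in brackets); red and blue points were called higher and lower, grey points were not called, black bars are list medians and the dotted line is the median of all genes, 0.00. Thick filament genes centre on 3.65, G2 and M phase genes on -1.64 and cholesterol synthesis genes on -1.37.

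Cell cycle genes fell nearly without exception on the second day. Of 69 G2 and M phase genes, all 69 fell, with a median of -1.64, and of 58 G1 and S phase genes 55 fell, 2 rose and 1 was not called (median -1.51). The background is 23.9% called lower. Mki67, the proliferation antigen, was at 489.3 and 553.1 CPM in proliferating cells, 738.8 and 740.2 CPM at 24 h and 237.5 and 222 CPM at 48 h, a second-day fall of 1.69 on the log2 scale (SE 0.08, adjusted p = 1.3e-08). At 24 h Mki67 was thus not below its level in proliferating cells. The summed level of the G2 and M genes was 11288 and 10598 CPM in proliferating cells, 9294 and 9166 CPM at 24 h and 3072 and 3063 CPM at 48 h. For the G1 and S genes the sums were 9112 and 8559, then 5396 and 5386, then 2704 and 2724 CPM.

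Cyclins fell in all but 1 case among those named. Ccna2, cyclin A2, went from 315.3 and 322.9 to 93.6 and 91.8 CPM (fell by 1.78, SE 0.08), and Ccnb1, cyclin B1, from 147 and 141.6 to 37.4 and 36.6 CPM (fell by 1.96, SE 0.09). Ccnd1, cyclin D1, had 776.7 and 631.6 CPM in proliferating cells and went from 144.2 and 147.7 to 34.6 and 32.4 CPM (fell by 2.12, SE 0.10, adjusted p = 6.98e-09). Ccnd3, the D-type cyclin that stays in differentiated muscle, rose from 379.5 and 390.2 to 627.8 and 611.4 CPM (0.69, SE 0.07, adjusted p = 1.06e-05). Cdk2 was the other G1 and S gene that rose (0.35), and E2f2 was not called (0.16). Of the replication genes, Mcm5, a helicase subunit, went from 131.2 and 130.8 to 32.4 and 31.9 CPM (fell by 2.03, SE 0.07), and Pcna from 202.5 and 204.8 to 72.9 and 79.6 CPM (fell by 1.42, SE 0.08).

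Genes of cell cycle exit moved in both directions: 8 of 26 rose and 10 fell. The cyclin-dependent kinase inhibitors of the p21 family rose. Cdkn1a went from 722.5 and 781.1 to 2031 and 2028 CPM (1.43, SE 0.11, adjusted p = 5.61e-07). Cdkn1c went from 286.1 and 299.5 to 1026 and 1032 CPM (1.81, SE 0.11, adjusted p = 7.19e-08), and Cdkn1b rose by 0.73. In contrast Cdkn2c (fell by 1.01) and Cdkn2d (fell by 0.57), inhibitors of the INK4 family, were lower. Among pocket proteins Rb1 (0.60) and Rbl2 (0.44) rose, while Rbl1 fell by 1.67, as did the E2F repressor E2f7 (fell by 1.66).

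Sterol synthesis was the other pathway that fell. Of 26 genes of cholesterol synthesis tested, 22 fell (84.6%) and 1 rose (median -1.37). Hmgcs1, whose promoter is shown above, was at 69.3 and 183.7 CPM in proliferating cells, 812.2 and 787.5 CPM at 24 h and 236.7 and 241.9 CPM at 48 h, a second-day fall of 1.74 (SE 0.32, adjusted p = 0.00074). The same shape held for the list: its median member was at 51.8 CPM in proliferating cells, 231.5 CPM at 24 h and 83.4 CPM at 48 h. Sqle, squalene epoxidase, went from 406.6 and 405.2 to 124.6 and 130.9 CPM and fell by 1.67. Insig2, which retains the SREBP complex in the membrane, rose by 0.46 while its paralog Insig1 fell by 1.70, and Srebf2 itself was not called (-0.28).

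Interferon-stimulated genes rose from low levels. Of 34 tested, 21 rose (61.8%) and 3 fell, with a median of 0.92. Ifit1 went from 3.88 and 3.17 to 63.8 and 56.9 CPM (4.09, SE 0.59, adjusted p = 0.000119), and Isg15, a ubiquitin-like protein, from 2.14 and 2.71 to 18.1 and 17.3 CPM (2.86, SE 0.67, adjusted p = 0.00396). The proliferating DMSO libraries differed from each other in these genes (Ifit1 4.78 and 0.295 CPM, Isg15 5.1 and 0.517 CPM). Of the 36 in the list, the median member tested was at 2.46 CPM at 24 h and 7.08 CPM at 48 h. The 3 that fell belong to antigen presentation: H2-K1 (fell by 0.57), B2m (fell by 0.35) and H2-D1 (fell by 0.29). Without replicate A of the 24 h group 13 rather than 21 members were called higher.

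Matrix genes showed no common direction: 17 of 57 rose and 15 fell (median 0.14). Col1a1, a chain of type I collagen, went from 399.5 and 395.9 to 593.6 and 576.4 CPM (0.56, SE 0.06), while Col1a2, its partner chain, was not called (1848 and 1454 CPM as group means, -0.35). Fn1, fibronectin, was at 5107 and 5297 CPM and then 3768 and 3551 CPM, a fall of 0.51 (SE 0.14, adjusted p = 0.0117), a call lost without either B library (adjusted p = 0.0688 and 0.0854). Col3a1 was not called at 3298 and 3182 and then 3447 and 3676 CPM, and with the proliferating libraries left out it was (adjusted p = 0.00171). Without those libraries 28 of the matrix genes rose and 20 fell, beside 3953 and 3850 of all 12371 genes. Leaving out any 1 of the 4 libraries instead gave fewer matrix genes called higher than the main fit.

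Cytoskeletal targets of SRF and YAP split, 12 higher and 12 lower of 36. Among those that fell were beta-actin, Actb (3936 to 2022 CPM as group means), gamma-actin, Actg1 (3090 to 1734 CPM), and filamin A, Flna (2134 to 1023 CPM). Immediate-early genes Fos (1.81), Junb (1.12) and Egr1 (1.08) rose. Acta2, smooth muscle actin, which myoblasts also express, went from 2414 and 2434 to 4962 and 4858 CPM, which is 1.02 on the log2 scale (SE 0.32, adjusted p = 0.0196). This call was lost when any 1 of the 4 libraries was left out (adjusted p from 0.0674 to 0.0924), and the proliferating DMSO libraries had 3735 and 1382 CPM. Ctgf was at 4.99 and 5.65 CPM and then 11.1 and 10.3 CPM, not called with the proliferating libraries in the fit (adjusted p = 0.17) and called without them (adjusted p = 8.27e-07). Tagln was level.

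Among ligands, receptors and binding proteins of the IGF, TGF-beta and BMP pathways, 18 of 45 rose and 10 fell. Igf2, the growth factor that C2C12 cells secrete as they differentiate, went from 142.6 and 144.9 to 865.7 and 814.8 CPM (2.55, SE 0.08, adjusted p = 3.48e-10). Igf1 rose by 0.45, and the receptors Igf1r and Igf2r by 0.41 and 0.65. Of the binding proteins, Igfbp4 rose by 1.38, and Igfbp2, Igfbp6 and Igfbp7 fell by 2.05, 0.72 and 0.56. Igfbp5 was at 11816 and 12546 CPM and then 10008 and 9524 CPM, not called with the proliferating libraries (94.7 and 437.3 CPM) in the fit and called without them (adjusted p = 1.03e-09). Follistatin, Fst, an antagonist of activins and myostatin, rose from 32.6 and 33.7 to 261.5 and 267.7 CPM, while the BMP antagonist Grem1 fell by 1.41 and the activin subunit Inhba by 1.12.

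The genes of the PFI-3 targets were read beside these. Smarca4, encoding BRG1, went from 372.9 and 389.2 to 285 and 268.3 CPM (fell by 0.46, SE 0.08, adjusted p = 0.000381). Smarca2, encoding BRM, was at 52.7 and 52.6 and then 68.4 and 63.6 CPM, not called (adjusted p = 0.106) unless the proliferating libraries were left out (adjusted p = 2.99e-05).

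The label of muscle precursors was met by high Myod1, Myog and Des at both times, and markers of 8 other cell types were read beside the results. Each list is given by how many of its listed markers were over 3 counts in any of the 4 libraries, and by the summed level of all its listed markers. Markers found in no library are outside these numbers: Adgre1 and Tyrobp (macrophage), Plin1, Cidec and Lep (adipocyte), Ibsp (osteoblast), Acan (chondrocyte) and Snap25 (neuron). With them, these lists hold 7, 7, 6, 5 and 6 markers in that order. Kdr of endothelium, Matn1 of cartilage and Rbfox3 of neurons were at 0 in all 4 libraries, and Adipoq, Fabp4, Alpl, Col2a1, Ptprc, Pecam1, Emcn, Sox10, Nppa and Nppb were at or under 3 counts. In the macrophage list, 4 of 5 listed markers were over the floor, and the whole list summed to 1.59 and 2.71 CPM at 24 h and 4.31 and 3.93 CPM at 48 h, and Itgam was called higher. The endothelial list (3 of 6) summed to 1.51 and 1.16 and then 5.77 and 4.58 CPM, and Cdh5 and Vwf were called higher. The adipocyte list (2 of 4) summed to 14.5 and 13.9 and then 22.2 and 23.3 CPM, with Cebpa called higher and Pparg not called. The neuron and Schwann cell list (2 of 5) summed to 4.52 and 3.33 and then 2.36 and 4.17 CPM. The osteoblast list (3 of 5) summed to 126.2 and 125.6 and then 79.5 and 74.9 CPM, most of it Runx2, which was called lower, and the chondrocyte list (2 of 4) to 77.2 and 78.5 and then 94.7 and 77.5 CPM, most of it Sox9. The smooth muscle list (5 of 6) went from 2630 and 2660 to 5208 and 5096 CPM, most of it Acta2, with Myh11 not tested at 0.0783 and 0.123 CPM as group means. Its members did not move together. Acta2 and Lmod1 were called higher, Actg2 was called lower (37.2 to 12.9 CPM as group means), and Cnn1 and Smtn were not called. The cardiac list (4 of 6) went from 24.6 and 23.9 to 49.2 and 45.5 CPM, mostly Gata4 and Myh6, both called higher. The part of other cells in the changes above was not tested.

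The second-day change was then compared with that of cells given PFI-3, through the difference of the changes in the same model (PFI-3 minus DMSO). This difference was called for 1517 of 12545 genes (12.1%), 893 in the positive direction (7.12%) and 624 in the negative (4.97%). In the fit without the proliferating libraries 4154 genes were called, 2117 positive and 2037 negative, and leaving out any 1 of the 8 DM libraries gave 790 to 865. The DMSO and PFI-3 changes share no library. Cell cycle genes stood out: the fall was smaller with PFI-3 for 66 of 69 G2 and M genes and for 50 of 58 G1 and S genes. The median G2 and M gene fell by 1.64 on the log2 scale with DMSO and by 0.47 with PFI-3. Its level went from 103.8 to 34.5 CPM with DMSO and from 91.6 to 66.8 CPM with PFI-3. Mki67 fell from 524.4 to 413.1 CPM as group means with PFI-3.

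Muscle structure genes rose in both treatments, and some rose by more with PFI-3, from lower levels. This held for 7 of 19 thick filament, 8 of 20 thin filament and 13 of 38 Z-disc and M-band genes, with 0, 0 and 2 in the other direction. Without the proliferating libraries in the fit these numbers were 9, 12 and 17, with 1, 3 and 5 in the other direction. Over all 12371 genes of that fit, 2117 had a more positive and 2037 a more negative change with PFI-3. Myh3 went from 409.4 to 5079 CPM with DMSO and from 131.2 to 3386 CPM with PFI-3, so it was lower with PFI-3 at both times while its log2 fold change was larger (4.69 against 3.63). In the opposite direction, 21 of 42 glycolysis and phosphagen genes had a less positive or more negative change with PFI-3, and their median change was 0.31 with PFI-3 against 0.89 with DMSO. Among ribosomal protein genes this held for 24 of 79, or 71 of 79 without the proliferating libraries in the fit. For cholesterol synthesis, 4 of 26 genes had a smaller fall with PFI-3, or 21 of 26 without the proliferating libraries. Levels at 24 h differed between treatments in both lists. The median ribosomal protein gene went from 464.1 to 491.7 CPM with DMSO and from 526.9 to 485 CPM with PFI-3. The median cholesterol synthesis gene went from 231.5 to 83.4 CPM with DMSO and from 122 to 70.8 CPM with PFI-3.

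**Figure D5:**
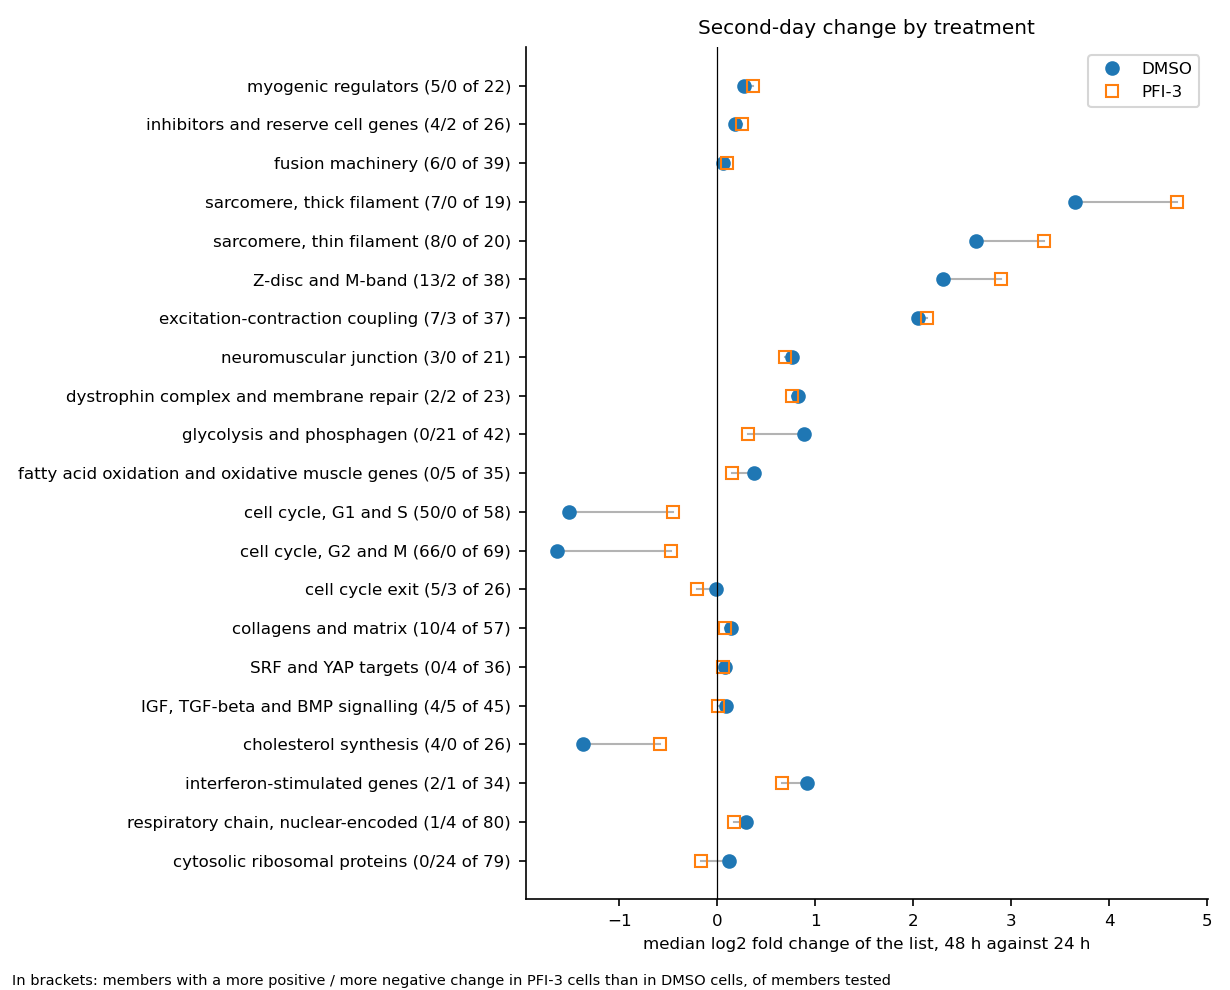
Median log2 fold change at 48 h against 24 h (x axis) of 21 gene lists (y axis) in DMSO cells (filled circles) and PFI-3 cells (open squares); brackets give how many members had a more positive or more negative change with PFI-3, of those tested. The widest gaps are those of the cell cycle lists, at -1.51 and -0.45 for G1 and S, and -1.64 and -0.47 for G2 and M, and of the thick filament list, at 3.65 and 4.69.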

How the data were processed

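RNA libraries were prepared, sequenced and processed by a sequencing provider, per the labels. The authors deposited 1 table per library with an expected count and an FPKM value per gene, per the file headers, and replicates were not pooled. Per the submitters' processing notes the build was mm10 and the tools included HISAT, StringTie, Cufflinks, Bowtie, RSEM and DESeq2; their roles and versions are not given in the sources used here. A gene missing from a table was taken as 0: among 6963 cases listed in 1 of 2 replicates, the median count was 1. Whole numbers (within 0.01) made up 93.5% to 94.0% of the counts.

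Expected counts were rounded and tested with edgeR 4.0.16 (R 4.3.3): TMM scaling, filterByExpr, a quasi-likelihood fit of 6 groups in 12 libraries with 6 residual degrees of freedom, and Benjamini-Hochberg adjustment, with calls at an adjusted p under 0.05. P-values are edgeR's unless another tool is named, and all are two-sided. With 2 libraries per group they measure only the spread between these duplicates. CPM values use the TMM-scaled totals. Alternatives were DESeq2 1.42.0, its size factors, other filters, the replicate letter as a block, fewer libraries, limma 3.58.1 on log2(FPKM + 1) or log2(FPKM + 0.1), and leaving out each library. In simulated counts of 12545 genes with 200 changed 2-fold, edgeR recovered 88% of them for the 48 h against 24 h comparison, with 4.9% of its calls false. For the difference between treatments it recovered 75%, with 5.1% of its calls false. Apart from the 200 genes, all groups were simulated with equal means, and each gene had the same spread in all groups. In the data 48.1% of genes were called and the proliferating pairs varied more than the others. These rates may therefore not carry over to the data.

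Named genes were a list of 70 and genes taken by 3 rules. The first took the 8 largest rises and falls among genes averaging 5 CPM or more. These had more than 3 counts in all 4 libraries, whole counts and groups that do not overlap. The second took the 4 largest bounds each way among genes at or under 3 counts at 1 time, with whole counts in all 4 libraries. The third took the 3 largest differences between treatments each way among called genes averaging 5 CPM or more over the 8 DM libraries. These had whole counts and more than 3 counts in all 8. Other genes are members of the 21 lists. Some named genes and list members are not reported here. The members, lists and tests were chosen with earlier results of these data known. Floors cover counting error only. Promoters came from RefSeq's GRCm38.p6 table, matched by gene ID for 10011 of 12545 tested genes. Tables and figures used Python 3.11.15, pandas 2.3.3 and matplotlib 3.10.9.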

Additional observations from a re-analysis of the deposited data

Results flagged for a closer look

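These changes from 24 h to 48 h differed between PFI-3 and DMSO cells by the test of the difference itself, in edgeR's quasi-likelihood test over all genes. The largest differences in either direction were taken among called genes averaging 5 CPM or more over the 8 DM libraries. Each had whole counts and more than 3 counts in all 8, so genes at or under 3 counts or with fractional counts are left out. Genes that were kept can still be low at 1 time. Pstpip1 had 8 and 6 counts in the 24 h DMSO libraries. The 3 largest positive differences (PFI-3 minus DMSO, log2) were those of Fgf21, a metabolic hormone, at 3.46 (SE 0.29, adjusted p = 3.39e-05), Pdgfb, a growth factor chain, at 2.01 (SE 0.35, adjusted p = 0.00289), and Fmod, a matrix proteoglycan, at 2.00 (SE 0.45, adjusted p = 0.0127). Fgf21 went from 19.5 and 20.5 to 52.1 and 49.8 CPM with DMSO and, as group means, from 0.724 to 20.5 CPM with PFI-3. As group means, Pdgfb went from 8.02 to 25 CPM with DMSO and from 0.762 to 9.66 CPM with PFI-3. Fmod went from 11.2 to 15.9 CPM with DMSO and from 0.609 to 3.52 CPM with PFI-3. All 3 genes were thus lower with PFI-3 at both times, while their log2 fold changes were larger. The Pdgfb difference lost its call with limma on log2(FPKM + 1) (adjusted p = 0.108). Fmod was not called in DMSO cells, and its difference lost its call in 7 alternatives, with adjusted p values up to 0.0774.

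The 3 largest negative differences were those of Pstpip1 at -2.85 (SE 0.43, adjusted p = 0.00106), Ifit1 at -2.71 (SE 0.81, adjusted p = 0.0497) and Pfkfb3, a regulator of glycolysis, at -2.20 (SE 0.31, adjusted p = 0.000738). Pfkfb3 went from 12.3 and 12 to 41.1 and 34.9 CPM with DMSO and from 25.9 to 17.6 CPM with PFI-3 as group means. Ifit1 lies at the threshold and lost its call without any single library (adjusted p from 0.119 to 0.182), with DESeq2-style size factors (0.051), with DESeq2 (0.292) and with limma on log2(FPKM + 1) and log2(FPKM + 0.1) (0.07 and 0.217).

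Over all genes tested, 7.12% had a more positive and 4.97% a more negative change with PFI-3. Lists in which at least 25% of the tested members differed in 1 direction, counting each direction separately, were the thick filament (7 of 19 members more positive with PFI-3), the thin filament (8 of 20), the Z-disc and M-band (13 of 38), G1 and S phase (50 of 58) and G2 and M phase (66 of 69). Members more negative with PFI-3 were found in glycolysis and phosphagen (21 of 42) and the cytosolic ribosomal proteins (24 of 79). Without the proliferating libraries in the fit the latter numbered 71, beside 2037 of all 12371 genes more negative with PFI-3.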

How the results depend on the processing

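Genes called in common between the 48 h against 24 h comparison and each alternative kept their direction in every alternative run. Calls with limma were 2650 higher and 3502 lower on log2(FPKM + 1), and 2518 and 3486 on log2(FPKM + 0.1). Fewer genes were called with 1 library left out, and a replicate block gave 3057 higher and 3045 lower genes. Between the 24 h and 48 h DMSO pairs, the correlation of same-letter deviations was -0.04 over 10305 genes. The value shows no common deviation of the letters between these pairs. Whether the letters are paired is not settled by it, because counting error is part of these deviations and no other pairs were compared. Genes called with a change of at least 2-fold were 1645 (1001 higher), and 999 (560 higher) with limma on log2(FPKM + 1), whose pseudocount shrinks folds of low genes. Genes with a different change under PFI-3 were 1517, 4154 in the libraries compared alone, 4181 there with a replicate block, and 790 to 865 with 1 library left out; the cause was not tested. Members called higher moved, in the same order of settings (libraries compared, those with the replicate block, the 8 DM libraries), to 14, 13 and 14 for inhibitors and reserve cell genes (7), 28, 28 and 28 for matrix genes (17) and 49, 43 and 46 for ribosomal proteins (20). Over all genes, 3931, 3834 and 3953 were called higher in these settings, against 3038 in the main fit. Inhibitors and reserve cell genes were 4 with limma on log2(FPKM + 0.1). With 1 library left out the ranges were 4 to 6 for inhibitors and reserve cell genes, 10 to 12 for matrix genes, 13 to 16 for interferon-stimulated genes (21) and 5 to 16 for ribosomal proteins. No named gene reversed. Depth limits genes at or under 3 counts, for which only bounds are given.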
